A study of Homo sapiens with 25 samples.

Results

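The accessible chromatin of HEC-1A cells after 72 h with THC was compared with that of untreated cells, using the 6 ATAC-seq samples of these 2 groups out of 25 samples in the series. HEC-1A is an established human endometrial adenocarcinoma line of epithelial character, carried here with a wild-type genotype label, and THC (tetrahydrocannabinol, the psychoactive cannabinoid of Cannabis) was given at 20 µM. Each group held 3 replicates, and the peaks of the 6 deposited lists on chromosomes 1 to 22 and X were merged into regions, once with every peak and once with lists of equal length. RNA-seq of the same groups, 3 ATAC lists after 24 h and H3K4me3 lists were set beside the regions, and an IgG sample was not analysed here. The labels give the untreated cells no time, so time in culture and THC cannot be told apart. Replicates are labelled biological, but separate cultures are not stated, so the spread behind each p-value may be technical. The labels give the H3K4me3 lists of THC-treated cells no duration.

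ATAC-seq uses a transposase that inserts adapters where DNA is not wrapped in nucleosomes, so that pile-ups of reads (peaks) mark open promoters and enhancers. Promoters of active genes are usually open and carry H3K4me3, a histone mark placed at gene starts, while enhancers lie further away and lack that mark. Remodelling complexes such as SWI/SNF, of which ARID1A is a subunit, slide or evict nucleosomes, and sterol genes are switched on by the SREBP factors when sterols are scarce.

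The lists differed between libraries before any region was compared. Untreated lists held 150884, 65042 and 99912 peaks for replicates 1 to 3, and lists after 72 h held 51017, 38495 and 80773. The groups overlapped (105279 ± 43172 against 56762 ± 21717, SD, n = 3 each, two-sided exact permutation p = 0.2, where 0.1 is the smallest this design allows). The files give no read counts, so the depth behind each list is unknown. The median peak of the full lists was longer after 72 h in every library, at 345, 246 and 206 bases against 150, 169 and 185 (exact permutation p = 0.1). Every list was therefore also cut to its 38495 strongest peaks, the size of the shortest list, ranked by the authors' -log10 p. The last peak kept in them had a -log10 p of 6.55, 5.51 and 7.68 in untreated lists and of 4.49, 3.73 and 5.99 after 72 h. Of the 72 h lists, only that of replicate 3 lay above an untreated one, replicate 2. In the equal-length lists, the groups overlapped in median peak length (exact permutation p = 0.5). It was 385, 246 and 286 bases after 72 h against 254, 213 and 287.

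Replicates 1 and 2 of the 72 h group stood apart from the other 4 libraries. Among regions listed in all 6 equal-length lists, their rank scores correlated with untreated libraries at r = 0.51 to 0.60, where replicate 3 reached 0.77 to 0.83 and untreated libraries reached 0.80 to 0.83 with each other. These are correlations across 18399 regions of shared position, given as a description. In the equal-length lists, the share of peaks within 1 kb of a gene start was 33.6%, 33.5% and 33.0% in untreated libraries and 29.6%, 27.7% and 32.0% after 72 h. The share lying in the longest gene-free stretch of a chromosome, which mostly holds the centromere, was 0.340%, 0.818% and 0.470% in untreated libraries. It was 3.34%, 4.81% and 1.04% after 72 h, above every untreated library (exact permutation p = 0.1), and 0.782%, 0.985% and 0.751% after 24 h. Both measures were most shifted in replicates 1 and 2 of the 72 h group, and their part in the results below was not tested.

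**Figure D1:**
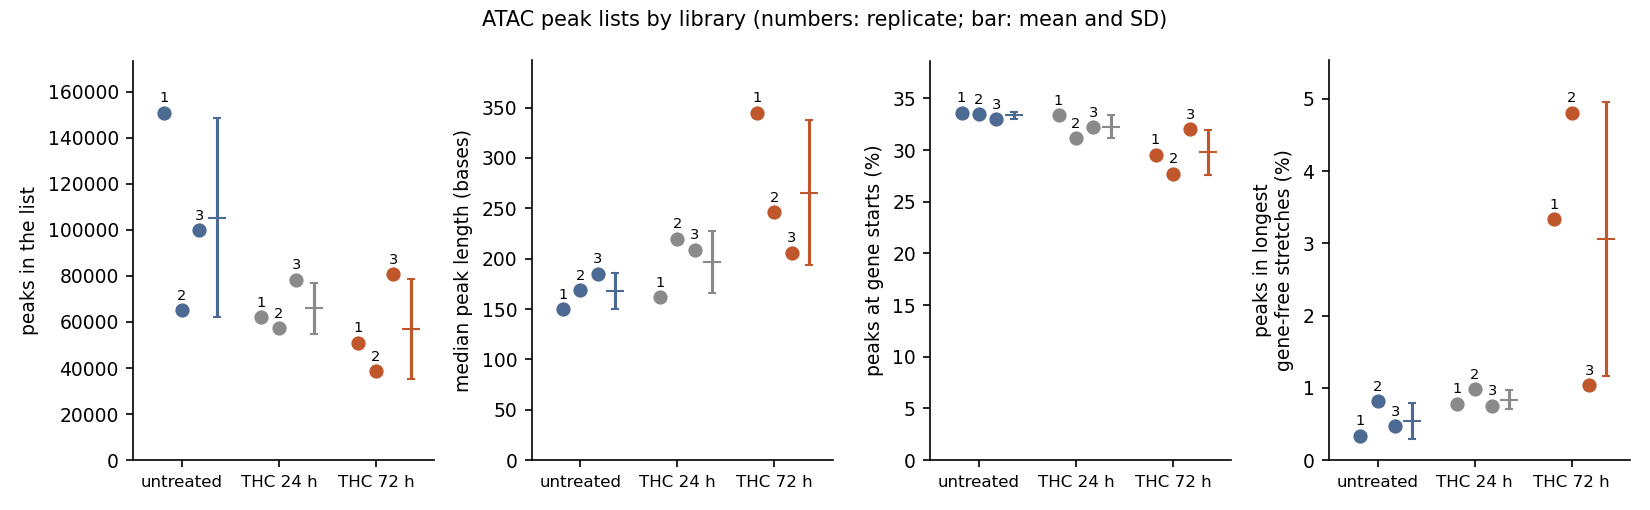
Each ATAC library is a point, numbered by replicate, for untreated cells, 24 h and 72 h of THC, with the group mean and SD (n = 3) as a bar; the y axes show peaks per list, median peak length in bases, and the percentage of the equal-length list within 1 kb of gene starts and in the longest gene-free stretches. After 72 h, replicates 1 and 2 lie at 3.34% and 4.81% in the gene-free stretches, while all untreated libraries lie below 1%.

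The labelled cell type was checked at epithelial genes. Of 23 starts of epithelial junction and keratin genes, 23 were listed in all untreated and 19 in all 72 h libraries, and TJP3, PKP3, ESRP2 and ST14 were each listed in 2 after 72 h. Those of CDH1 and EPCAM, which encode adhesion proteins of epithelial cells, and of the keratin genes KRT8 and KRT18 were listed in all 6. KRT8 ranked 1443, 3157 and 797 in untreated lists and 1504, 2254 and 693 after 72 h, and the groups overlapped. KRT19 had no start in the tables used, and its RNA was at 336 ± 17.1 TPM in untreated cells. Of 13 mesenchymal and stromal marker genes with a start, 9 were listed in all untreated and 3 in all 72 h libraries. Among them VIM, the vimentin gene, was listed in 3 untreated and 1 of the 72 h libraries with RNA up by 1.11. ZEB1, a repressor of epithelial genes, was listed in all 6 with RNA up by 1.63. Of the 9 tested genes of that list, 3 rose and 4 fell in RNA (median 0.03), with COL1A1 at -1.22 and FN1 at -1.05. Of 13 immune marker genes with a start, 3 were listed in all untreated lists and 2 in all 72 h lists, and of 5 endothelial ones 1 and 0. Of all 29000 genes with a start, 15087 were listed in all untreated and 11954 in all 72 h libraries. For genes tested for RNA, these shares were 94.2% and 80.2%, so listing fell in general.

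Few regions were present in 1 group and missing from the other. A region was called lost when all 3 untreated equal-length lists held it and no 72 h list held any peak there at full length, and gained in the opposite case. By that rule 391 of 68807 regions were lost (0.568%) and 60 were gained (0.0872%). On the equal-length lists alone 950 were lost (1.38%) and 520 gained (0.756%), and on the full lists 3035 of 216682 were lost (1.40%) and 221 gained (0.102%). The 3 untreated full lists were longer on average, so that last pair carries the difference in list length. The main rule carries part of it too, since a gained region had to be absent from the longer full untreated lists. Only the counts on equal-length lists alone are free of it. A set of 18399 regions was held by all 6 equal-length lists. These presence calls have no test, since 3 libraries against 3 allow none for a single region.

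The count of lost regions depended on which libraries entered, and most on 1 of them. Without untreated replicate 1, 2 or 3, 660, 830 or 700 regions were lost. Without replicate 3 of the 72 h group, the one most like untreated cells, 3303 regions were lost and 588 gained. With replicate 3 as the only 72 h library, 568 were lost and 651 gained, so that gains then outnumbered losses. Fewer libraries loosen the rule by construction. In lists of 19247 peaks, 20 regions were lost and 0 gained, so that few of the strongest peaks met the rule.

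**Figure D2:**
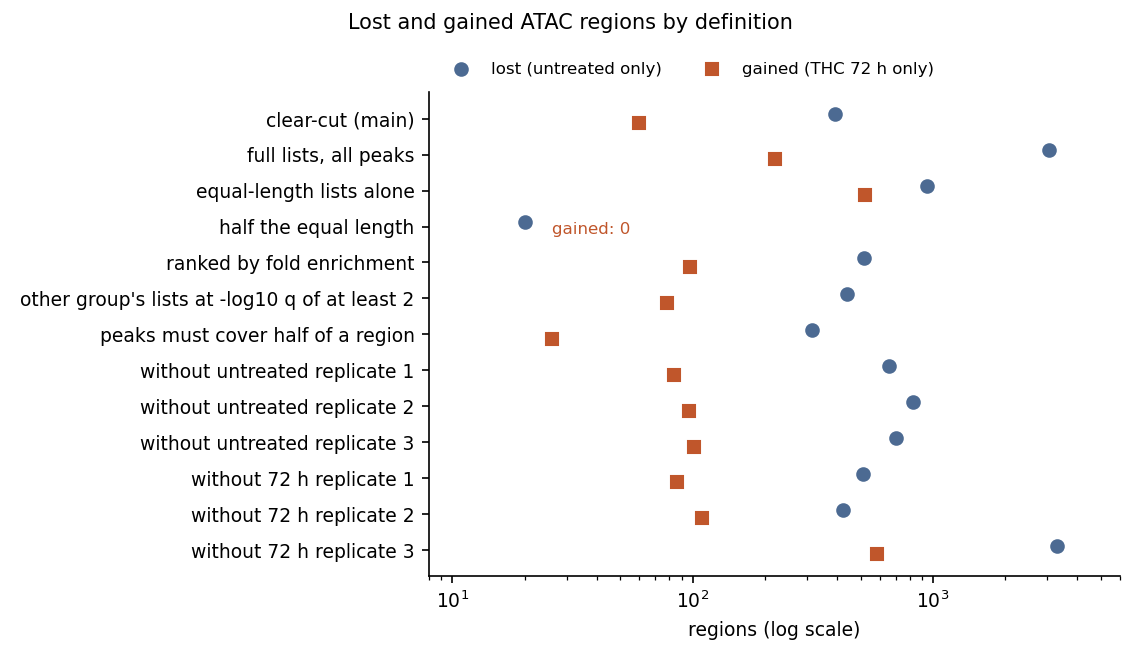
The x axis (log scale) gives the number of regions listed by untreated libraries only (circles, lost) or by 72 h libraries only (squares, gained) under the main definition and each alternative on the y axis. Lost regions range from 20 with lists of 19247 peaks to 3303 without replicate 3 of the 72 h group.

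Lost regions were short, weak and mostly away from promoters. Their median length was 133 bases, against 303 for all regions and 714 for those in all 6 lists. Their median ranks in the untreated lists were 26505, 26960 and 27958 of 38495. In 20 of 391, all 3 untreated ranks were in the better part of the list, up to rank 19247. Length and rank follow in part from the rule. Regions merged from more lists are longer, and weak peaks more easily lack a peak in every full 72 h list. Of the 391, 23 (5.88%) lay within 1 kb of a gene start, against 20.2% of all regions and 48.9% of those in all 6 lists. Another 59.8% lay elsewhere in genes and 34.3% outside them, against 47.8% and 32.0% of all regions. H3K4me3 was listed over 80 of the lost regions (20.5%) in all 3 untreated CUT&RUN lists. In all 3 lists of THC-treated cells it was listed over 72 (18.4%), against 34.6% of all regions in either group. Only 1 carried it in every untreated list and in none after THC, as did 78 of all 68807 regions. Of the 950 regions lost on equal-length lists alone, 124 (13.1%) lay at gene starts.

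Most lost regions had no neighbour that remained. Of the 391, 341 had no peak within 1 kb in any full 72 h list, 32 had one in 1 or 2 lists and 18 in all 3. At gene starts the picture differed, since 9 of the 23 lost regions there had peaks of all 3 lists within 1 kb. After 24 h, 90 of the 391 were still listed in all 3 full lists, 149 in 2, 115 in 1 and 37 in 0. For all regions, 50.6% were listed in all 3 of the 24 h lists.

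**Figure D3:**
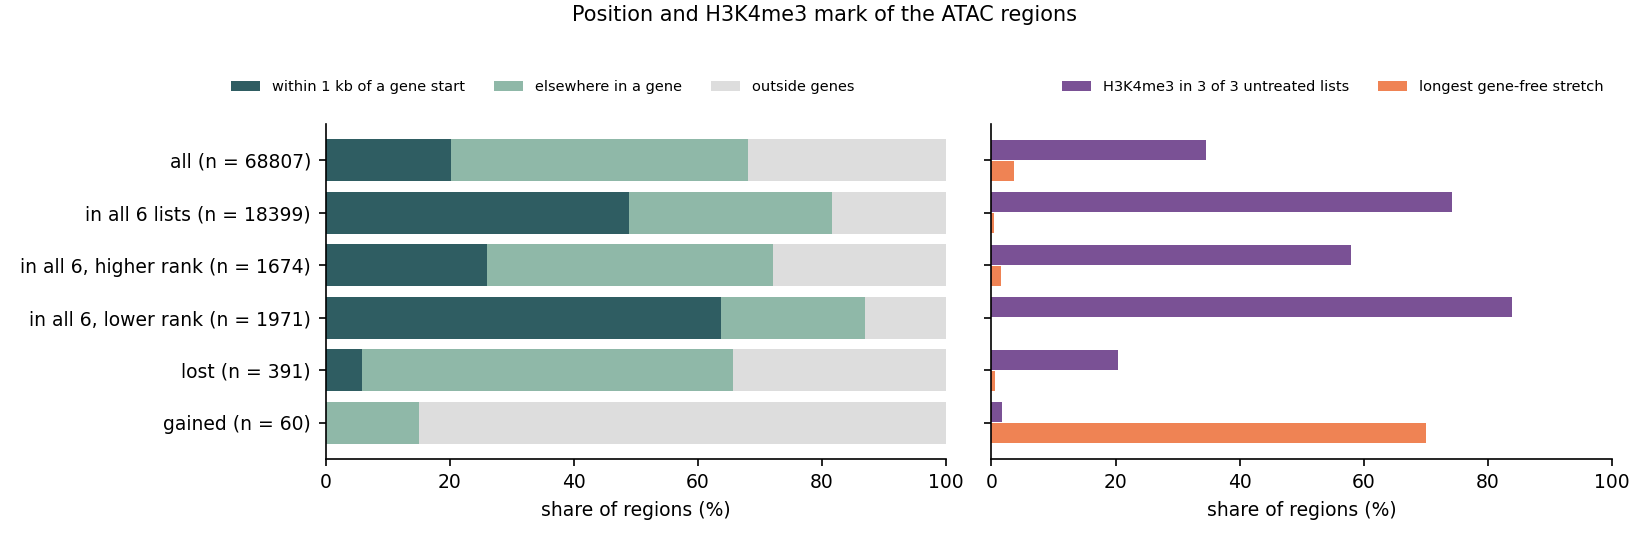
Stacked bars on the left give the percentage of regions of each class that lie within 1 kb of a gene start, elsewhere in a gene or outside genes; bars on the right give the percentage with H3K4me3 in all 3 untreated lists and in the longest gene-free stretch of a chromosome. By the main rule, gained regions have 0 at gene starts and 70.0% in gene-free stretches, and lost regions have 5.88% at starts.

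The 10 best-ranked lost regions at protein-coding starts belonged to MTMR4, HNRNPD, HNRNPL, WNT1, PLLP, NCOA7, NKX2-1, TSPAN7, SPATC1L and NSMF. MTMR4 encodes a phosphoinositide phosphatase. Its lost region, chr17:58514527-58514746 (GRCh38), ranked 7905, 6672 and 15782 in untreated lists and had no peak after 72 h, though all 3 of the 24 h lists held it. MTMR4 has 2 starts in the table. The one by the lost region kept a peak within 1 kb in replicate 3 of the 72 h lists alone, at rank 25725. The other, at position 58517880, had one in every library, at ranks 169, 135 and 71 in untreated and 188, 598 and 146 in 72 h lists. HNRNPD and HNRNPL encode RNA-binding proteins of the hnRNP family, which act in splicing and mRNA turnover. Their lost regions, chr4:82373157-82373233 and chr19:38851897-38852163, ranked 13637, 11925 and 20893, and 17575, 23593 and 24920, in untreated lists. The single HNRNPD start kept a strong peak within 1 kb in all 6 libraries, at ranks 355, 1058 and 381 after 72 h. HNRNPL has 2 starts in the table, and the one by the lost region (38852347) had no peak left in any 72 h list. The other (38849986) kept a peak in all 6, at ranks 87, 608 and 131 after 72 h. All 3 genes thus had a start with a peak in every library, which for MTMR4 and HNRNPL was not the start by the lost region. Elsewhere the best peak over all starts of a gene is given.

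Promoters at the 4 best-ranked lost regions by protein-coding starts are printed because the missing peaks lie on or beside these promoters. They run from 250 bases before to 50 bases after the start and come from RefSeq, GRCh38.p14. MTMR4 is at chr17:58514589-58514888, minus strand, HNRNPD at chr4:82373942-82374241, minus strand, HNRNPL at chr19:38852298-38852597, minus strand and WNT1 at chr12:48978072-48978371, plus strand. Capitals mark matches to any of 16 short motifs on either strand, here the GC box (GGGCGG), the ETS motif (CCGGAAG), the TATA box (TATAAA), the E-box (CACGTG), the CCAAT box (CCAAT), the TEAD motif (GGAATG) and the RUNX motif (TGTGGTT).
MTMR4: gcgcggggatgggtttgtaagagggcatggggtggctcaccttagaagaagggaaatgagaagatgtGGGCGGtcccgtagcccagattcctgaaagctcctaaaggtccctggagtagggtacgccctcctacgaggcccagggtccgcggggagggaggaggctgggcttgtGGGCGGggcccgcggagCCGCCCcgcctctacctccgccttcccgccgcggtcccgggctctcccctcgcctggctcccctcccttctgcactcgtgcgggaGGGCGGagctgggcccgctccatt
HNRNPD: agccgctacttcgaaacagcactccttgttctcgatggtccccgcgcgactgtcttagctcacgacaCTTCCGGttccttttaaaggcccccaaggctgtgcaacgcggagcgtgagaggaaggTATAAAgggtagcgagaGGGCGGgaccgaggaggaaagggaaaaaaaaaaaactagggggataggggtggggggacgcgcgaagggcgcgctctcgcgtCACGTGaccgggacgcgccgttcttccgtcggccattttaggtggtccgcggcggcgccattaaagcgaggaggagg
HNRNPL: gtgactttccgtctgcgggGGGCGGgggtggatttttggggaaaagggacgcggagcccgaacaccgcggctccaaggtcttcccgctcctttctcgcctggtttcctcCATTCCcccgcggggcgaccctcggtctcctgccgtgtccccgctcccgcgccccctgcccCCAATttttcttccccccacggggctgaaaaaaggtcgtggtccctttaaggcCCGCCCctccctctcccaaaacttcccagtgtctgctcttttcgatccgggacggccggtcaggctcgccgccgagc
WNT1: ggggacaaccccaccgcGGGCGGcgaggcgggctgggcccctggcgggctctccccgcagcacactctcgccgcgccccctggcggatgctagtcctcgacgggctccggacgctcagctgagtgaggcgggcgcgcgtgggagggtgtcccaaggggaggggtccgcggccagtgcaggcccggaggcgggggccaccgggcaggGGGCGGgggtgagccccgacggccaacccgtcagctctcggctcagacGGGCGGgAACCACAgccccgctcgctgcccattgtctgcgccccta
All 4 hold a GC box, as do 45.0% of 34961 RefSeq promoters of this length. The share was 67.9% of the 28 promoters within 1 kb of a lost region and 71.2% of 12589 at regions listed in all 6 libraries. The lost regions of MTMR4 and WNT1 overlap the printed windows, while those of HNRNPD and HNRNPL lie downstream of them. A match is a description of the letters and not a bound site.

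RNA at the genes with a lost region moved in both directions. Of 26 genes with a start within 1 kb of a lost region, 15 were tested for RNA with limma on log2(TPM + 1), where TPM is a transcript abundance scaled to a fixed library total. Of these 7 rose and 7 fell, beside 5514 up (40.1%) and 4542 down (33.0%) among all 13753 tested genes. The median change was 0.07 against 0.06 for all. HNRNPD fell from 414 ± 8.20 to 206 ± 5.88 TPM (log2 change -1.01, limma adjusted p = 8.56e-09) and HNRNPL from 647 ± 18 to 309 ± 5.30 TPM (-1.07, limma adjusted p = 3.47e-09). TIPARP, a mono-ADP-ribosyltransferase gene, rose by 1.13 (limma adjusted p = 1.77e-07), with its start listed in all 6 libraries.

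Of the 26 genes, 11 had no peak left within 1 kb of the start in any 72 h list, and 3 of these 11 were tested for RNA. TSPAN7, which encodes a tetraspanin membrane protein, ranked 34217, 19424 and 26000 in untreated lists. Its RNA was at 14.2, 12.8 and 14.6 TPM in untreated cells and at 3.09, 3.64 and 3.73 TPM after 72 h (log2 change -1.73, limma adjusted p = 3.07e-08). NSMF and UNC5A, a netrin receptor gene, rose by 0.41 and 0.72 (limma adjusted p = 0.000379 and 0.000916). At these 3 genes, then, a start without a listed peak came with lower RNA in 1 case and higher RNA in 2. H3K4me3 was listed at all 3 starts in all 6 CUT&RUN lists.

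The strongest lost regions lay in copies of mitochondrial DNA inside the nuclear genome. Among lost regions over 10 kb from any start, the first by rank was in SMAD2 over the pseudogene MTCO2P2 (chr18:47853273-47853385). It ranked 13, 17 and 18 in untreated lists, was in all 3 of the 24 h lists and had no peak in any 72 h list. The next were in MTND4P35 (chr5:100049392-100049462; ranks 23, 18 and 23) and MTRNR2L8 (chr11:10507890-10507962; ranks 45, 31 and 72), each listed in 1 of the 24 h lists. After them came a region outside genes nearest to PKNOX1 (chr21:42957500-42957576; ranks 266, 128 and 673) and one inside ANK3, the ankyrin-G gene (chr10:60180330-60180413; ranks 807, 1058 and 1801). All 5 were 71 to 113 bases long.

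Pseudogenes of mitochondrial genes were then counted as a set, chosen after these values were seen. Across 479 of them, full untreated lists had 35, 28 and 24 peaks and full 72 h lists had 16, 18 and 20. The lost regions that led to this choice are among the peaks counted, so these counts cannot test a group difference. As a share of the full list the groups overlapped, at 0.0232%, 0.0430% and 0.0240% against 0.0314%, 0.0468% and 0.0248%. In the equal-length lists, the counts were 28, 26 and 21 in untreated libraries, 16, 18 and 17 after 72 h and 24, 23 and 18 after 24 h, and untreated and 72 h libraries did not overlap. Of 30 regions in such pseudogenes, 3 were lost and 13 were held by all 6 lists. Reads of these copies and of the mitochondrial genome can be nearly alike, and how they were told apart is not stated, so these values are uncertain as measures of nuclear chromatin. RNA of SMAD2, the TGF-beta signal transducer that hosts the first region, was at 93.8 TPM in untreated cells and 111 TPM after 72 h (log2 change 0.24).

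By the main rule, gained regions lay mostly where no gene is annotated. Of the 60, 42 (70.0%) were in the longest gene-free stretch of 8 chromosomes, with 12 on chromosome 19, 9 on chromosome 5 and 8 on chromosome 1, against 3.70% of all regions. None lay within 1 kb of a gene start, against 20.2% of all regions. This placing went with the main rule. Of the 520 gained on equal-length lists alone, 85 (16.3%) lay in those stretches, 22 (4.23%) at gene starts and 49.6% elsewhere in genes. No H3K4me3 was listed over 53 of the 60 in any of the 6 lists, as for 37571 of all 68807 regions. The best-ranked was chr10:40135002-40135505, at ranks 1684, 2677 and 20708 after 72 h, and it was already in all 3 of the 24 h lists. The next was chr1:124736048-124736405, at ranks 13206, 4737 and 21476. In both, replicate 3 ranked the region below the other 2, and over all 60 the median ranks were 17264, 14941 and 32173. Such stretches hold satellite repeats whose reads map to many places, so the position of these peaks is uncertain.

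The regions listed in all 6 libraries were compared by rank. Ranks in the equal-length lists were turned into normal scores (the value of a standard normal distribution at that rank) and tested with limma across 18399 regions. None passed an adjusted p of 0.05 (0%), and the lowest adjusted p was 0.240. At an unadjusted p under 0.05, 1403 were higher and 1121 lower after 72 h. Without replicate 3 of the 72 h group, limma called 23 higher and 9 lower.

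In 1674 regions (9.10%) all 3 of the 72 h ranks were better than every untreated rank, and in 1971 (10.7%) all were poorer. Of the former, 436 lay at gene starts, and of the latter 1255 (63.7%). Regions of lower rank thus lay at promoters more often than the 48.9% of all 18399, and 83.9% of them carried H3K4me3 in all untreated lists. Rank is relative, and the 72 h lists held fewer promoter peaks, as given above. When the ranks of 11267 gene starts were counted among those starts alone, the split changed. Without that step 515 starts (4.57%) had a better rank without overlap and 1613 (14.3%) a poorer one, so that 24.2% of the moved starts were higher. With it 1027 were higher (9.12%) and 959 lower (8.51%), or 51.7% of those moved. Ranking starts among themselves brings the split near even by construction, so it says nothing of promoters against other regions and serves only to compare starts with each other.

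The largest of these differences are described with no call, since none passed the test, and were chosen after their values were seen. The region at the shared start of ATG13, an autophagy initiation gene, and HARBI1 ranked 1136, 1256 and 1045 in untreated lists. After 72 h it ranked 23157, 26649 and 4349, and the 2 libraries that stood apart were the lowest. RNA of ATG13 and HARBI1 rose by 0.42 and 0.62 (limma adjusted p = 2.89e-05 and 3.35e-05), against the direction of the rank. HAVCR1, a phosphatidylserine receptor of epithelial cells, ranked 12033, 3264 and 10985 in untreated lists and 37352, 27824 and 22894 after 72 h (score difference -1.72, limma adjusted p = 0.248). Its RNA was at 242, 248 and 241 TPM in untreated cells and at 24.2, 24.1 and 27.1 TPM after 72 h (log2 change -3.23, limma adjusted p = 3.77e-11). Rank and RNA were both lower there in every 72 h library. At CLDN4, which encodes a tight junction claudin, the best peak within 1 kb ranked 30230, 26281 and 36303 in untreated lists and 15164, 14086 and 22712 after 72 h. Its RNA did not pass the test, at 391 ± 8.44 and 436 ± 17.4 TPM (limma adjusted p = 0.0846).

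**Figure D4:**
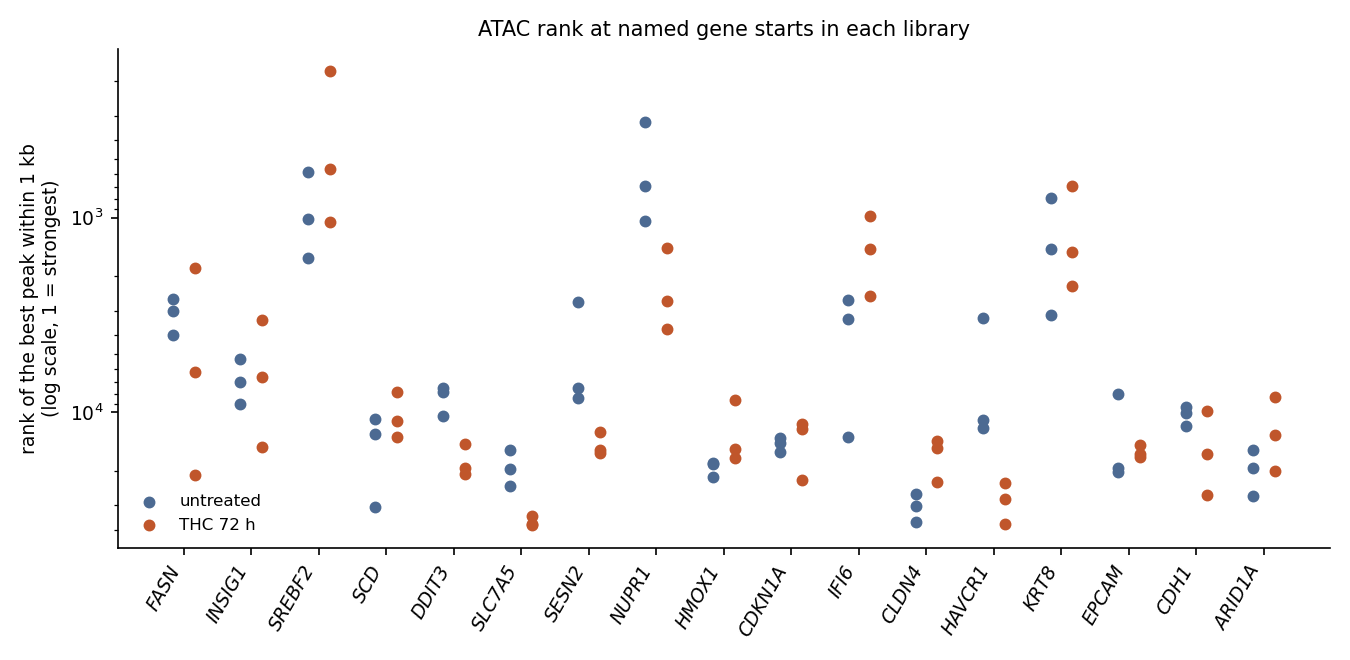
For the gene starts on the x axis, the rank of the best ATAC peak within 1 kb is shown on an inverted log axis for each untreated (blue) and 72 h (orange) library. DDIT3, SLC7A5, NUPR1 and HAVCR1 have poorer ranks in every 72 h library, while SREBF2, KRT8 and EPCAM overlap between the groups.

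The genes that make cholesterol kept listed promoters while their RNA fell. All 20 genes of the cholesterol synthesis list had a peak within 1 kb of the start in all 6 full lists, as did 80.1% of all tested genes with a start. RNA of all 20 fell (median log2 change -1.07), beside 33.0% of all tested genes. Ranks were better without overlap for 2 and poorer for 6 of the 20, beside 4.57% and 14.3% of all starts. Counted among gene starts alone they were better for 2 and poorer for 4, beside 9.12% and 8.51%. FDPS, which makes farnesyl diphosphate, ranked 188, 213 and 167 in untreated lists and 2429, 1944 and 262 after 72 h, with RNA at -1.37. HSD17B7, a sterol reductase gene, ranked 225, 165 and 217 against 1777, 1699 and 1312. EBP, a sterol isomerase gene, had better ranks in every 72 h library while its RNA fell by 1.04.

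Most regulators of sterol and lipid supply also kept their listed starts. Of 15 genes of cholesterol uptake and regulation, 14 were listed in all untreated and 13 in all 72 h libraries. Over all tested genes with a start, these shares were 94.2% and 80.2%. SREBF2, the sterol-sensing transcription factor gene, ranked 1018, 587 and 1614 in untreated lists and 178, 1055 and 563 after 72 h, with RNA at -0.80. FASN, the fatty acid synthase gene, ranked 2617, 3023 and 4009 against 1824, 20970 and 6174, and INSIG1, which holds SREBP in the endoplasmic reticulum, 7016, 5310 and 9004 against 3364, 15111 and 6544. Groups overlapped at all 3. SREBF1 and MLXIPL, which encode lipogenic transcription factors, were each listed in all 3 untreated libraries and in 2 after 72 h, with RNA at -1.31 and 0.15 (the latter did not pass the test, limma adjusted p = 0.213). Of 21 fatty acid genes with a start, 19 were listed in all untreated lists and 16 in all 72 h lists. Of the 16 ranked in all 6, 1 was lower without overlap, beside 14.3% of all starts. Among gene starts alone 0 were lower, beside 8.51%.

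SCD, the stearoyl-CoA desaturase that makes monounsaturated fatty acids, had the largest RNA fall among these genes. Its RNA was at 205, 213 and 201 TPM in untreated cells and at 7.85, 9.25 and 8.66 TPM after 72 h (log2 change -4.44, limma adjusted p = 2.03e-11). Its start ranked 12940, 30404 and 10776 in untreated lists and 7827, 11014 and 13353 after 72 h. The groups overlapped, and no 72 h library ranked SCD below all untreated ones. ARID1A, the SWI/SNF subunit named in the study's title, ranked 19377, 26806 and 15572 against 19890, 8358 and 13038, with RNA at -0.59. Of 26 SWI/SNF subunit genes with a start, 24 were listed in all untreated and 20 in all 72 h libraries, with 0 starts lost and 0 gained. Over all tested genes with a start, 94.2% and 80.2% were so listed. Of 18 ranked in all 6, PBRM1 and BCL7C were the 2 with poorer ranks without overlap, beside 14.3% of all starts. Among gene starts alone 1 was poorer, beside 8.51%.

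Stress-response genes rose in RNA, and several of their promoters ranked poorer after 72 h. Of 22 tested genes of the integrated stress response, which slows translation and turns on ATF4 targets, 21 rose and 0 fell in RNA (median 1.99), beside 40.1% and 33.0% of all tested genes. Of 20 starts ranked in all 6 lists, 5 were poorer without overlap (DDIT3, SESN2, SLC7A5, DDIT4 and NUPR1), 1 was better (XPOT), beside 14.3% and 4.57% of all starts. Both counts were the same among gene starts alone, beside 8.51% and 9.12%. DDIT3, which encodes the stress factor CHOP, ranked 10427, 7874 and 7476 in untreated lists and 20777, 19337 and 14444 after 72 h. Its RNA was at 26.2, 26.4 and 27.7 TPM in untreated cells and at 465, 482 and 497 TPM after 72 h (log2 change 4.12, limma adjusted p = 4.93e-12). SLC7A5, an amino acid transporter gene, ranked 23921, 19492 and 15635 against 33825, 37766 and 37251, with RNA up by 1.24. NUPR1, a stress-induced chromatin protein gene, ranked 692, 1045 and 323 against 3742, 2667 and 1436, with RNA up by 1.91.

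The promoters of DDIT3 and SCD are printed as listed starts with large RNA changes, with those of CLDN4 and KLHDC7B, where ATAC rank or listing was higher after 72 h. These 4 were chosen after their values were seen. They are from RefSeq (GRCh38.p14), DDIT3 at chr12:57520465-57520764, minus strand, SCD at chr10:100346983-100347282, plus strand, CLDN4 at chr7:73830746-73831045, plus strand and KLHDC7B at chr22:50545649-50545948, plus strand. Capitals mark matches to the same motifs, here also AP-1 (TGANTCA) and the CARE element (TGATGNAA) that ATF4 and CHOP can bind.
DDIT3: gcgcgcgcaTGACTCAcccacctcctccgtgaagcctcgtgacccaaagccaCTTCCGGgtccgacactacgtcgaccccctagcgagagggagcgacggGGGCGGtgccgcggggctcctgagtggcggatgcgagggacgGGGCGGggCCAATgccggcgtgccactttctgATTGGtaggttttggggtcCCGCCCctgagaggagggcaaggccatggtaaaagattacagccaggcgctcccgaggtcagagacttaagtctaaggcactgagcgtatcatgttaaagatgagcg
SCD: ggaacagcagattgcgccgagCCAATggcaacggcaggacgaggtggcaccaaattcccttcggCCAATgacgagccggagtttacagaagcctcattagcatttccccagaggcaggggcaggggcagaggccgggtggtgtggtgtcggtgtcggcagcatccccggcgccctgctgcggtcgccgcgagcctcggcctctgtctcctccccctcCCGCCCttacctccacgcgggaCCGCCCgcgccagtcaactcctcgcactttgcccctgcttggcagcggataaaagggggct
CLDN4: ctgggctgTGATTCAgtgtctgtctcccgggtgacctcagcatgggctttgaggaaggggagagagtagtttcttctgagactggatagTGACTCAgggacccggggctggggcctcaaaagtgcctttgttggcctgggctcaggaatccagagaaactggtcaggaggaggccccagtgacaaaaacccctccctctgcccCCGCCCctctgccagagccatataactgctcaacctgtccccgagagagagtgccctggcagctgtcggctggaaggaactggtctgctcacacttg
KLHDC7B: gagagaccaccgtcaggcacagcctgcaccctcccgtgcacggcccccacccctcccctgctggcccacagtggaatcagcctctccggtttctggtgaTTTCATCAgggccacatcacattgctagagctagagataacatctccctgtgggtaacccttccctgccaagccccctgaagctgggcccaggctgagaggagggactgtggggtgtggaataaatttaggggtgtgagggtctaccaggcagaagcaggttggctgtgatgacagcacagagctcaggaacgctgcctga
CLDN4 holds AP-1 letters at 2 places and DDIT3 at 1, which 7.68% of all promoters of this length also hold. KLHDC7B holds the CARE letters once, as do 3.62% of all promoters. AP-1 letters were held by 5.72% of promoters at regions of better rank without overlap and by 3.73% at those of poorer rank. At all regions listed in 6 libraries the share was 4.45%. Promoters at the better-ranked regions held a TATA box in 9.15% and at the poorer-ranked in 3.57%, against 4.18% for all regions listed in 6 libraries.

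Other induced genes also had starts that were listed throughout. CDKN1A, the p21 cell cycle inhibitor, ranked 14342, 15993 and 13480 in untreated lists and 22154, 12183 and 11447 after 72 h, while its RNA rose from 4.28 ± 0.203 to 140 ± 8.30 TPM (4.74, limma adjusted p = 4.93e-12). HMOX1, the heme oxygenase gene, ranked 18409, 18239 and 21401 against 17130, 8628 and 15416, with RNA up by 4.28. Every 72 h rank of HMOX1 was better than every untreated one. ATF3, a stress-induced transcription factor gene, had no peak within 1 kb of its start in any of the 9 ATAC lists although its RNA rose from 1.41 ± 0.0308 to 56.8 ± 5.73 TPM. The table holds 1 set of starts and transcription may begin elsewhere.

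Interferon-response genes had the highest median rank difference of the lists with at least 5 ranked starts. Of 18 with a start, 15 were listed in all untreated and 10 in all 72 h libraries, beside 15087 and 11954 of all 29000 genes with a start. Of the 10 starts ranked in all 6 lists, 4 were better without overlap (among them ISG15, IFI6 and IFIH1) and 0 poorer, beside 4.57% and 14.3% of all starts. Counts were the same among gene starts alone, and the median score difference was 0.30 against -0.16 for all. IFI6 ranked 13420, 2652 and 3313 in untreated lists and 977, 1451 and 2538 after 72 h with RNA at -0.42, and IFIH1, a sensor of double-stranded RNA, 28500, 26986 and 30352 against 17926, 12721 and 25857 with RNA up by 0.93. Of the 16 tested genes of the list 9 rose and 5 fell, beside 40.1% and 33.0% of all tested genes.

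Median rank differences of the gene lists were small. Over 21 lists with at least 5 starts ranked in all 6 libraries, the median score difference ran from -0.34 (fatty acid synthesis) to 0.30 (interferon), with 18 below 0 as for all starts (-0.16). Over all starts, 4.57% were better and 14.3% poorer without overlap, or 9.12% and 8.51% among gene starts alone. Of all tested genes, 33.0% fell in RNA, and 80.1% of those with a start were listed in all 6 libraries. All 27 mitosis genes fell in RNA and 24 were listed in all 6 libraries. Of their starts 2 were better and 4 poorer without overlap, or 3 and 1 when counted among gene starts alone. Of 26 S phase genes, 23 fell in RNA and 2 starts were poorer either way. Among YAP and TEAD targets, AMOTL2, a regulator of that pathway, ranked 4987, 4447 and 7288 against 18892, 20217 and 18708 with RNA at -2.54, and 4 of 13 starts were poorer and 1 better, or 1 and 2 among gene starts alone. Across all lists 2 starts were lost on the full lists, PFKP of glycolysis and MAFK of the AP-1 list, and 0 were gained.

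Most genes with strong RNA changes had starts listed in all 6 libraries. Of 11590 tested genes with a start, 80.1% were listed in all 6 full lists, as were 68.7% of the 834 that rose and 73.7% of the 649 that fell at least 2-fold. The 72 h lists held the starts of 91.7%, 80.9% and 95.0% of all tested genes, against 96.4%, 94.5% and 96.2% in untreated lists. Among genes under 0.1 TPM on average, 51.1% of 7097 had no peak in any of the 6 lists. In the median, the score difference was -0.11 for genes that rose at least 2-fold, and -0.17 both for those that fell and for genes not called. Across 8905 genes, which are not independent replicates, rank difference and RNA change correlated at r = 0.03 and rho = 0.03.

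**Figure D5:**
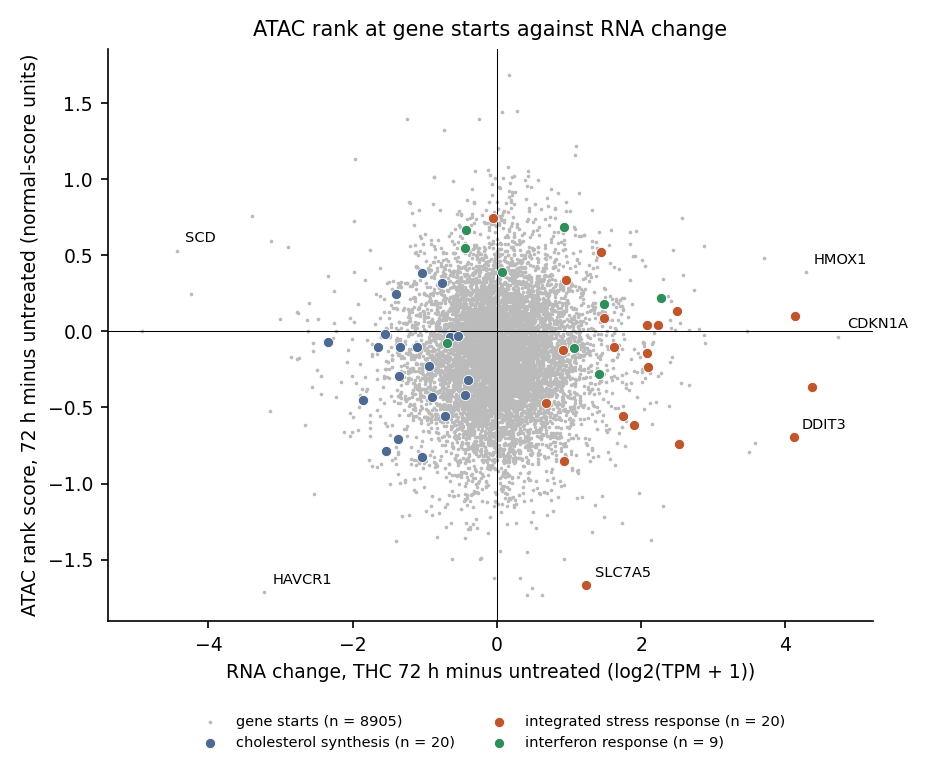
Each of 8905 gene starts is a point, with the RNA change after 72 h on the log2(TPM + 1) scale on the x axis and the difference in ATAC rank score on the y axis; coloured points are cholesterol synthesis, integrated stress response and interferon genes. The cholesterol genes lie left of 0 and nearly all stress-response genes right of it, while both spread above and below 0 on the y axis.

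A few genes went from nearly silent to expressed. Of 29 genes with a start whose RNA went from under 1 TPM to at least 5 TPM, 14 were listed in all untreated lists, 9 in all 72 h lists and 9 in none of the 6. Of 21 genes that went from at least 5 TPM to under 1 TPM, 14 were listed in all untreated and 7 in all 72 h lists. Only KLHDC7B, a kelch-domain gene, gained its start among tested genes, with no untreated peak and a peak in all 3 of the 72 h lists. It ranked 35252 and 35754 in replicates 1 and 2 after 72 h and lay below the equal-length list in replicate 3. Its RNA was at 0.0155, 0.0363 and 0.0312 TPM in untreated cells and at 12, 12.1 and 13.7 TPM after 72 h (3.73, limma adjusted p = 2.80e-10). CD68, a lysosomal glycoprotein gene, rose from 0.249 ± 0.0544 to 32.9 ± 5.68 TPM and had a listed start in all 6 libraries, in the equal-length lists of 2 of the 72 h libraries and 0 untreated ones.

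Among the 33 tested genes whose start was listed in all 3 untreated and no 72 h full lists, 5 fell at least 2-fold and 3 rose at least 2-fold, beside 649 and 834 of all 11590 tested genes with a start. CCSER1 fell from 7.56 ± 1.01 to 0.323 ± 0.208 TPM, and VWA1, an extracellular matrix gene, fell by 1.36. LAT, an adaptor of T cell signalling, rose by 1.09. FXYD6, an ion transport regulator gene, rose by 1.32 from 0.0748 to 1.69 TPM, while the readthrough gene FXYD6-FXYD2, which shares a start with it, fell by 2.11 from 4.79 to 0.347 TPM. Overlapping transcripts make both values uncertain. MKNK2, a kinase of the translation factor eIF4E, rose by 0.92. The cannabinoid receptor genes CNR1, CNR2 and GPR55 had 0 of 3 listed starts after 72 h, and CNR1 had 2 of 3 in untreated cells.

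Genes near lost regions were also counted, an addition made after the data were seen. Of 174 tested genes that were the nearest within 50 kb of a lost region, 67 rose and 76 fell (43.7% down; all tested genes 33.0%), with a median of -0.07. Of 8986 that were nearest to a region in all 6 lists, 36.6% fell. Only 6 tested genes lay within 50 kb of a gained region, of which 3 rose and 1 fell.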

How the data were processed

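ATAC-seq of HEC-1A cells was compared between 3 untreated and 3 THC 72 h samples, grouped by the labels, with RNA-seq, H3K4me3 and 24 h ATAC lists beside them. Replicate numbers are those of the labels, and the deposited ATAC lists carry other numbers in their names. Reads were placed on GRCh38, with tools named as Bowtie2, SAMtools, Picard, Trim Galore, FastQC, Salmon, MACS3 and MACS2 2.2.7.1, per the submitters' processing notes, which give no roles. Read shifting, duplicate removal, blacklisting and the caller of the ATAC lists were not given in the sources used here.

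RNA abundances were deposited by the authors as TPM, a unit that keeps no depth. Peaks were called per library, and the deposited lists hold fold enrichment (a ratio), -log10 p, -log10 q and a score column. The score, as deposited by the authors, was not used. Lists were ranked by the authors' -log10 p, and the deposited fold enrichment ranked them in an alternative. The lowest deposited -log10 q was 1.3.

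Peaks were merged in Python 3.11.15 with pandas 2.3.3, numpy 2.4.6 and scipy 1.17.1, any overlap counting as listed. The rank of a region or gene start is that of its best peak, over all starts of a gene. Gene starts were those of RefSeq promoters (GRCh38.p14). For 1805 of 19974 protein-coding genes without one, the only gene end with H3K4me3 within 1 kb in all 6 lists was used, a rule that was right for 96.8% of 8488 known starts, and 2357 had none. RNA and rank scores were tested with limma 3.58.1 in R 4.3.3, eBayes with Benjamini-Hochberg adjustment at 0.05. RNA used 9 libraries, log2(TPM + 1) and a mean TPM of at least 1, so fold changes understate low genes. Errors are SDs over 3 libraries. Both fits were checked on simulated data.

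The comparison, the 25 gene lists and the rules for named genes were chosen with earlier results of these data known. Named were fixed genes of interest, the 10 lost and 10 gained regions at protein-coding starts and 5 of each over 10 kb from any start with the best poorest rank, and up to 4 members per list. Fewer qualified among gained regions. Some fixed genes are not reported here.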

Additional observations from a re-analysis of the deposited data

How the results depend on the processing

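Lost and gained counts (391 and 60) moved with list length and with single libraries. They were 3035 and 221 on full lists, 950 and 520 on equal-length lists alone, and 20 and 0 in lists of 19247 peaks. Gained regions numbered 98 when ranked by fold enrichment and 26 when peaks had to cover at least 0.5 of a region. Leaving out 1 library by construction loosens the rule for losses and for gains alike. It gave 421 to 3303 lost and 84 to 588 gained regions, the highest of both without replicate 3 of the 72 h group. Leaving out both 72 h libraries that stood apart, a choice made after seeing the data, gave 568 and 651. Losses outnumbered gains each time, apart from those 2 libraries left out together. Every setting other than equal-length lists alone also drew on the full lists, which were longer on average in untreated cells.

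No constant region was called by rank under any alternative other than leaving out 1 library, which gave 0 to 23 higher and 0 to 9 lower regions, again the most without replicate 3 of the 72 h group. The fit with a replicate block also gave 0 and 0, with 1511 and 1121 regions at an unadjusted p under 0.05. Deviations of same-numbered samples correlated at -0.02, 0.01 and 0.15 (RNA 0.04, -0.06 and 0.25). No strong shared deviation was seen, and whether the samples were paired cannot be told from these values. The difference in peaks per list kept its sign in every alternative run.

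The median RNA change of genes with a start within 1 kb of a lost region (0.07, 15 tested genes) was near 0 throughout. It was -0.01 with a mean TPM of at least 5, -0.01 with libraries centred on their median, 0.07 with the replicate block, 0.19 for starts within 250 bases, and -0.05 to 0.15 without 1 RNA library. Read depth is unknown for all lists, so regions missing from a list may lie below its detection limit.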
